A study of Homo sapiens with 6 samples.

Results

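The MHC class I antigen presentation genes described here are HLA-B, HLA-C, HLA-E, B2M, TAP1, TAP2, TAPBP, PSMB8 and PSMB9. They were chosen by name for their role in the pathway, and all 9 of them, of 19845 gene symbols counted, also passed edgeR's filter on low counts, as did 11861 genes in all. RNA was sequenced from 6 bulk cultures of Molm13-Cas9+ cells. Molm13 is a human line of acute myeloid leukemia with a rearranged MLL gene, here expressing the Cas9 nuclease. All cultures were infected with the lentiviral guide vector ipUSEPR and kept under puromycin, so the control cells also carried Cas9, a vector and a guide. The sgCtrl group held 3 cultures with different control guides, and the sgCOX4I1 group held 3 cultures with different guides against COX4I1, a nuclear-encoded subunit of cytochrome c oxidase in the mitochondrial respiratory chain. The cultures were edited pools and not clones, so the spread within a group includes differences between guides, and the question was which transcripts differ once COX4I1 is targeted.

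MHC class I molecules carry fragments of the cell's own proteins to its surface, where CD8+ T cells read them. The proteasome cuts proteins into peptides, the TAP1/TAP2 pump moves peptides into the endoplasmic reticulum, tapasin (TAPBP) holds empty class I molecules beside that pump, and a loaded heavy chain with beta-2-microglobulin (B2M) travels to the surface. Interferons, NF-kappaB and the class I transactivator NLRC5 are known to raise transcription of these genes in many cell types. Loss of the pathway is a known route by which tumor cells avoid T cells.

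The targeted gene was examined first. COX4I1 stood at 513, 502 and 463 CPM (counts per 1000000 counts of the effective library size after TMM normalization) in the libraries sgCtrl #1, #2 and #3, and at 132, 378 and 133 CPM in sgCOX4I1 #1, #2 and #3. Every sgCOX4I1 library lay below every sgCtrl library, with the smallest decrease in sgCOX4I1 #2. The log2 fold change was -1.21 (SE 0.29, adjusted p = 0.0512 by the Benjamini-Hochberg method, edgeR quasi-likelihood F test), and it was -1.89 without sgCOX4I1 #2 (adjusted p = 3.37e-06 from the same test). Total counts ran from 17241014 to 30861943 per library. The 10 myeloid marker genes all passed the filter on low counts. For the summed levels of markers, the TMM-scaled library size took in all genes counted, also those below the filter. The myeloid sum was 3094 to 3880 CPM in sgCtrl and 3608 to 4792 CPM in sgCOX4I1. LYZ, the lysozyme gene, carried the higher sum (1149 to 2099 CPM in sgCtrl and 2025 to 3103 CPM in sgCOX4I1, overlapping, adjusted p = 0.0534 from edgeR), whereas 7 of the 10 estimates lay below 0. MPO, the myeloperoxidase of granules, was the 1 marker called and fell from 218 to 235 CPM in sgCtrl to 105 to 117 CPM in sgCOX4I1 (log2 fold change -1.06, SE 0.074, adjusted p = 1.6e-05 from edgeR). Among markers of other cells, all 5 erythroid genes and CD3D, COL1A2 and EPCAM were at 0 in every library, and MS4A1, CD79B, CD3E, CD2 and KLRD1 stayed under 10 counts. PAX5, the 1 B cell marker that passed the filter, stood at 16.8, 18.3 and 16.1 CPM in sgCtrl and at 18.7, 21.0 and 21.4 CPM in sgCOX4I1, without overlap (log2 fold change 0.25, SE 0.11, adjusted p = 0.246 from edgeR). The 6 T and NK cell markers summed to 156 to 179 CPM in sgCtrl and 183 to 208 CPM in sgCOX4I1, carried by NCAM1 and NKG7, and the 6 stromal and epithelial markers to 172 to 201 and 188 to 222 CPM, mostly PECAM1, and the part of these levels in the results below was not tested. In bulk RNA, a change in the share of one kind of cell and a change in RNA per cell cannot be told apart.

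On GRCh38 in GENCODE 44, 8 of the members lie in the MHC on chromosome 6 and B2M lies on chromosome 15. HLA-E spans 30489509 to 30494194 on the plus strand, HLA-C 31268749 to 31272130 on the minus strand and HLA-B 31353872 to 31367067 on the minus strand. Further along the chromosome, TAP2 spans 32821833 to 32838739, PSMB8 32840717 to 32844679 and TAP1 32845209 to 32853816, all on the minus strand. PSMB9 spans 32844136 to 32859851 on the plus strand, TAPBP spans 33299694 to 33314284 on the minus strand, and B2M spans 44711358 to 44718851 on the plus strand of chromosome 15. RefSeq promoter windows on GRCh38.p14, from 250 bases before to 50 bases after each annotated start, were found for 8 of the 9 members, which gave 10 windows because TAP1 and PSMB8 have more than 1 start. HLA-E had no entry. The following 6 windows are shown because they precede the heavy chains with the highest counts, their partner B2M and the transport and loading genes, which include the member with the largest fold change (TAP2) and the member that was lower in sgCOX4I1 (TAPBP). Capitals mark matches to the motifs listed after them.
HLA-B, chr6:31357130-31357429, minus strand: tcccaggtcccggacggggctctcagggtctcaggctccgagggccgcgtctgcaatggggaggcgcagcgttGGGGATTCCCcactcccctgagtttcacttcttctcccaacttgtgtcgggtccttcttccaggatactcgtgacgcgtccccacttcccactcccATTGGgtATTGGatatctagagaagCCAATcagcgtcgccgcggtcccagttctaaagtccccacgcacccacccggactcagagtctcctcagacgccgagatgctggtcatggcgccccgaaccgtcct
HLA-C, chr6:31272043-31272342, minus strand: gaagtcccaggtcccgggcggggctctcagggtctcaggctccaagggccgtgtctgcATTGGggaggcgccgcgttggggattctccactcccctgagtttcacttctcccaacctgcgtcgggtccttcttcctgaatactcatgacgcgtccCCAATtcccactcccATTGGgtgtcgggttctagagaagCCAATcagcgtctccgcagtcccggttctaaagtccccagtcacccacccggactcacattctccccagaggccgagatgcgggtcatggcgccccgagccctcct
B2M, chr15:44711267-44711566, plus strand: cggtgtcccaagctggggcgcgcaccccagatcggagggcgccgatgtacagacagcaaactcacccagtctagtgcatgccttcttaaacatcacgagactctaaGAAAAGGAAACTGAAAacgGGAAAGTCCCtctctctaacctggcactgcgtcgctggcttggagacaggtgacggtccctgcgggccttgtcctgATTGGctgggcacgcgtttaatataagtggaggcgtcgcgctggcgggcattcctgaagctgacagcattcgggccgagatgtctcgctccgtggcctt
TAP1 start 1, chr6:32853655-32853954, minus strand: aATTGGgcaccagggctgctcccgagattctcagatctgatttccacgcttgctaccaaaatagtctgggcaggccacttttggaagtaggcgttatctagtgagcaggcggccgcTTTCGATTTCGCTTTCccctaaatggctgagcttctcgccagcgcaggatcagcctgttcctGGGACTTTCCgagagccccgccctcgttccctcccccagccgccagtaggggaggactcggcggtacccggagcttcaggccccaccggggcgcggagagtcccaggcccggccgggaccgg
TAP2, chr6:32838690-32838989, minus strand: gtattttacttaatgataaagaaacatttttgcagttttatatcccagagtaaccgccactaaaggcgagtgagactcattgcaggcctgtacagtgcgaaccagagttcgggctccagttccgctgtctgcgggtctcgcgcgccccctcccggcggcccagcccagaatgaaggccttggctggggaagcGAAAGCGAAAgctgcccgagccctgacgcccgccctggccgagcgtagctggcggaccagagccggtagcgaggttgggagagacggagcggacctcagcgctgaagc
TAPBP, chr6:33314029-33314328, minus strand: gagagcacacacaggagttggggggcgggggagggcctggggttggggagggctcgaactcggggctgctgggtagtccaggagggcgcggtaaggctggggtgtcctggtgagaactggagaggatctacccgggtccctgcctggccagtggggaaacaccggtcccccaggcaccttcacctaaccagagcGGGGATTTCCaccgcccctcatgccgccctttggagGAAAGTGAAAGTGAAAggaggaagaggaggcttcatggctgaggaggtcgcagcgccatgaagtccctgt

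The motifs were searched on both strands in these and all other windows. The interferon-stimulated response element (ISRE, GAAA, any 2 bases, GAAA), bound by IRF and STAT factors, was found in 5 of the 10 member windows, those of B2M, TAP1 start 1, TAP2, TAPBP and PSMB8 start 2, and in 3.57% of all 35116 windows. In B2M, TAP1 and TAPBP a pair of ISRE matches overlapped each other. The kappaB motif (GGG, any 2 bases, TT, any base, CC), bound by NF-kappaB, was found in 4 member windows, those of HLA-B, B2M, TAP1 start 1 and TAPBP, and in 5.68% of all windows. The gamma-activated sequence (GAS, TTCNNNGAA), bound by STAT dimers, was found in 2 member windows, TAP1 start 2 and PSMB8 start 2, and in 7.66% of all windows. The CCAAT box (CCAAT), bound by NF-Y, was found in 5 member windows and in 34.6% of all windows. The cyclic AMP response element (CRE, TGACGTCA) and the motif of ATF4 with C/EBP factors (CARE, TGATGNAA) had no match in any member window, against 1.85% and 3.62% of all windows. These counts describe letters in a fixed window and do not show binding.

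**Figure D1:**
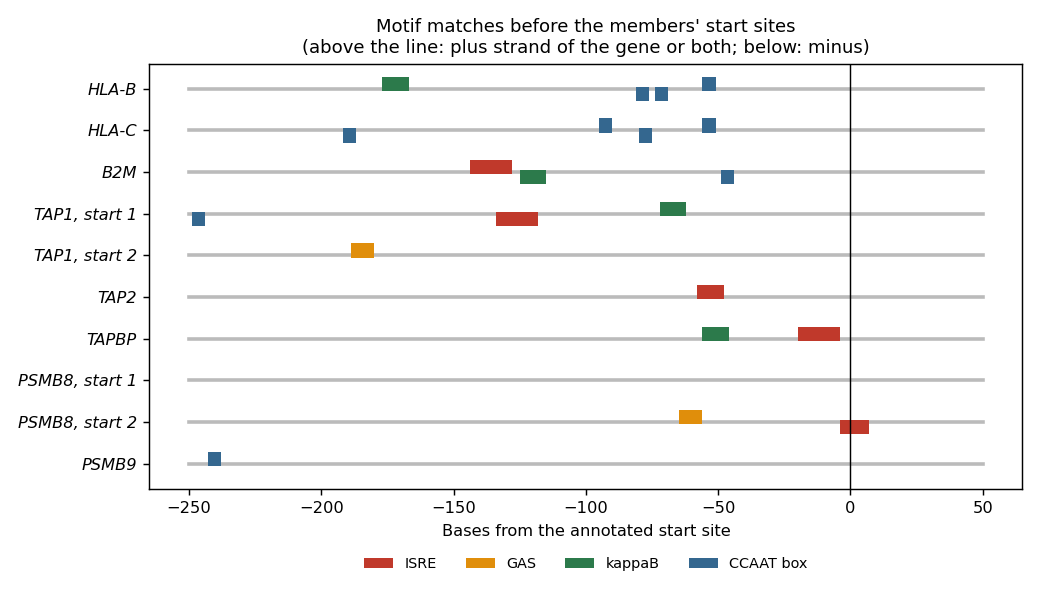
Motif matches in the 10 promoter windows of 8 members, by distance in bases from the annotated start (0 on the horizontal axis), with 1 row per start. Bars stand for ISRE, GAS, kappaB and CCAAT box matches, above the line for the strand of the gene or a match on both strands and below it for the other strand. ISRE matches appear in 5 rows.

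The HLA-B and HLA-C windows were 88.5% identical over 304 aligned columns, whereas all other pairs of members, taken at the first start, had between 46.5% and 53.4% identity. Both have a CCAAT box match from -56 to -52, counted from the start. TAP1 start 1 and PSMB9 lie 488 bases apart on opposite strands. These positions matter for the counts below as well. HLA-B and HLA-C are polymorphic paralogs, and reads that match both could be split between them or dropped by the authors' counting, so their levels are uncertain. A read-through transcript (ENSG00000250264) shares 35.8% of the canonical TAP2 exons on the same strand, and genes on the opposite strand overlap 40.5% of TAPBP exons, 23.7% of HLA-B exons and 21.5% of TAP1 exons. The library kit was directional, but the strand setting of the counting is not given in the sources used here.

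The class I heavy chains and B2M were among the more abundant transcripts of the pathway and differed little between the groups. No member passed edgeR's test at an adjusted p under 0.05 in either direction, against 2.08% of all tested genes (247 of 11861). Estimates lay above 0 for 8 of the 9 members, against 49.4% of all tested genes, and the member below 0 was TAPBP. The median log2 fold change of the members was 0.14, against -0.0023 for all tested genes, of which the middle part from the lower to the upper quartile ran from -0.12 to 0.12. No member reached a change of 2-fold with an adjusted p under 0.05, which 0.202% of all tested genes did. In 5 of the 9 members every sgCOX4I1 library lay above every sgCtrl library, against 11.2% of all tested genes, and in 0 members did every sgCOX4I1 library lie below, against 10.4% of all. An unadjusted p under 0.05 was seen for HLA-B and TAP2, 2 of 9 members, against 17.3% of all tested genes. DESeq2 and limma-voom also called 0 members. The members are part of 1 pathway and share libraries, so these counts are not independent.

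**Figure D2:**
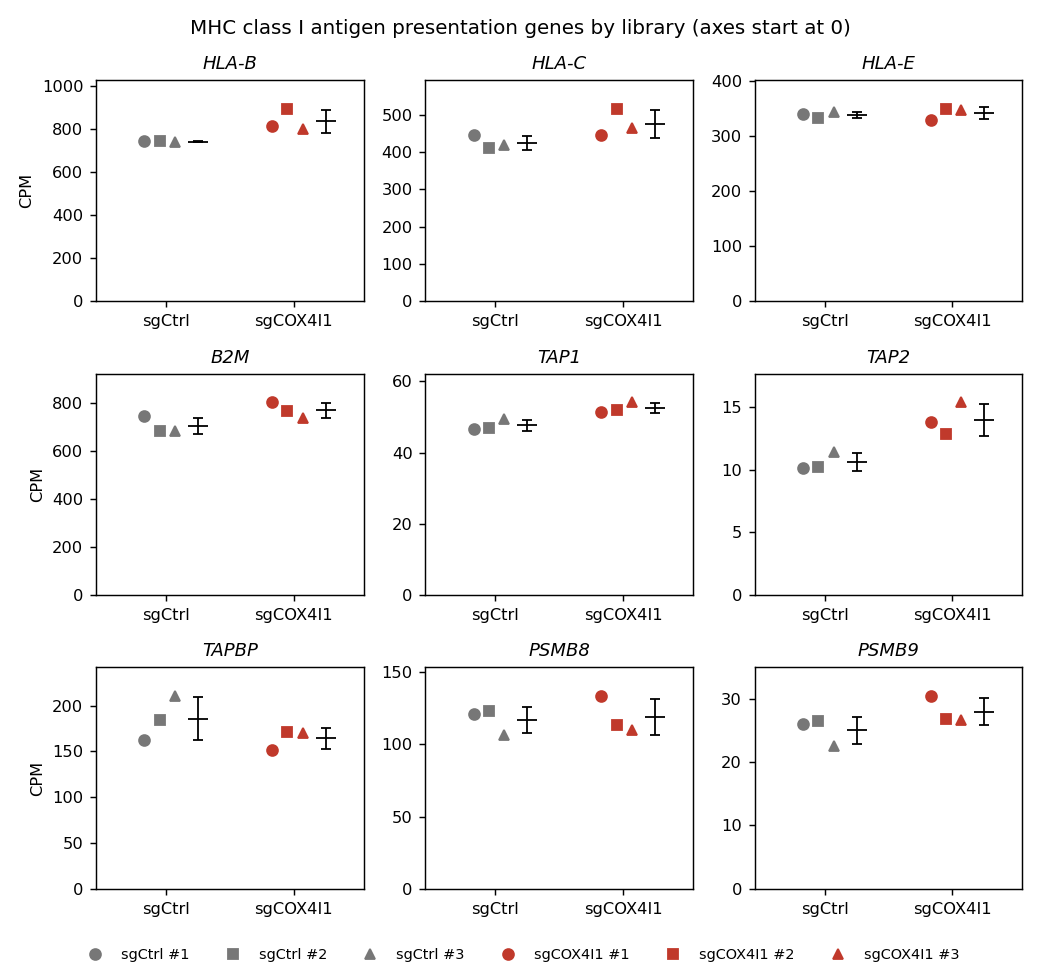
CPM (vertical axes, starting at 0) of the 9 members in the 3 sgCtrl (gray) and 3 sgCOX4I1 (red) libraries, with a panel per gene and a marker shape per guide number. The black bar beside each group is the mean ± SD of its 3 libraries. The groups are separate, with sgCOX4I1 higher, for HLA-B, HLA-C, TAP1, TAP2 and PSMB9.

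HLA-B encodes a classical heavy chain that presents peptides to CD8+ T cells and is also seen by killer-cell receptors. It was counted at 743, 744 and 739 CPM in sgCtrl #1, #2 and #3 and at 814, 895 and 798 CPM in sgCOX4I1 #1, #2 and #3. The sgCtrl libraries nearly coincided (coefficient of variation 0.386%, against a median of 8.70% over all tested genes), and every sgCOX4I1 library lay above them. The log2 fold change was 0.17 (SE 0.079, 95% interval 0.0019 to 0.34, adjusted p = 0.284 from edgeR), which is a level 12.6% higher with an interval from 0.13% to 26.5%. Without sgCOX4I1 #2, the library in which COX4I1 RNA was least decreased, it was 0.12.

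HLA-C, the other classical heavy chain in the set and the main ligand of inhibitory killer-cell receptors, was counted at 446.2, 410.0 and 419 CPM in the sgCtrl libraries. In sgCOX4I1 #1, #2 and #3 it stood at 446.6, 517 and 464 CPM. The groups were separate only by the small gap between sgCtrl #1 and sgCOX4I1 #1, and sgCOX4I1 #2 was again highest. The log2 fold change was 0.16 (SE 0.080, 95% interval -0.0099 to 0.33, adjusted p = 0.319 from edgeR), and it was 0.10 without sgCOX4I1 #2. HLA-B and HLA-C moved together over the 6 libraries (Pearson's r = 0.910, a description over libraries that share the group difference and possibly reads).

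HLA-E encodes a nonclassical heavy chain that mainly presents leader peptides of other class I chains to the NKG2A receptor of natural killer cells. It was counted at 339, 332 and 343 CPM in sgCtrl and 328, 349 and 346 CPM in sgCOX4I1, and the groups overlapped. Its log2 fold change of 0.013 had a 95% interval from -0.14 to 0.16 (adjusted p = 0.95 from edgeR), and it was -0.0031 without sgCOX4I1 #2. Relative to HLA-B counts, HLA-E counts were 0.456, 0.447 and 0.465 in sgCtrl and 0.403, 0.390 and 0.434 in sgCOX4I1, and all 3 sgCOX4I1 values were lower.

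B2M encodes the invariant light chain, without which heavy chains do not reach the surface. It was counted at 747, 686 and 685 CPM in sgCtrl and at 804, 769 and 741 CPM in sgCOX4I1, where sgCOX4I1 #3 lay just below sgCtrl #1. The log2 fold change was 0.13 (SE 0.079, 95% interval -0.041 to 0.30, adjusted p = 0.435 from edgeR). The ratio of B2M counts to the summed HLA-B, HLA-C and HLA-E counts was 0.469 ± 0.017 (SD, n = 3) in sgCtrl and 0.468 ± 0.035 (SD, n = 3) in sgCOX4I1. Light chain and heavy chain transcripts thus kept nearly the same proportion, and the chains with B2M made up 0.220% of all counts in sgCtrl and 0.243% in sgCOX4I1.

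Among the genes of peptide transport and loading, TAP2 had the largest fold change of the set and TAPBP the only negative estimate. TAP2, a subunit of the ATP-driven peptide pump, was counted at 10.1, 10.3 and 11.4 CPM in sgCtrl and at 13.8, 12.8 and 15.4 CPM in sgCOX4I1. Each sgCOX4I1 library lay above each sgCtrl library, with 186 to 481 counts per library behind these values. The log2 fold change was 0.40 (SE 0.13, 95% interval 0.13 to 0.68, adjusted p = 0.114 from edgeR), which is a level 32.4% higher with an interval from 9.72% to 59.7%. With the guide number as a block its adjusted p was 0.0292 in edgeR, and that fit called 1408 genes in all. Over each library left out in turn, the estimate stayed between 0.33 and 0.47.

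TAP1, the partner subunit of the pump, was counted at 46.8, 46.8 and 49.5 CPM in sgCtrl and at 51.5, 51.9 and 54.1 CPM in sgCOX4I1. The groups did not overlap, and the difference was small, with a log2 fold change of 0.14 (SE 0.076, 95% interval -0.025 to 0.30, adjusted p = 0.377 from edgeR). TAP2 counts relative to TAP1 counts were 0.217, 0.219 and 0.231 in sgCtrl and 0.268, 0.247 and 0.284 in sgCOX4I1. Both genes were highest in sgCOX4I1 #3, and their levels ran together over the 6 libraries (Pearson's r = 0.978, a description).

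TAPBP encodes tapasin, which bridges empty class I molecules to the pump and favors the loading of tightly bound peptides. It was counted at 163, 184 and 210.1 CPM in sgCtrl and at 151, 171 and 171 CPM in sgCOX4I1. The sgCtrl libraries were spread widely (coefficient of variation 12.8%), and the groups overlapped. The log2 fold change was -0.18 (SE 0.093, 95% interval -0.38 to 0.024, adjusted p = 0.355 from edgeR). sgCtrl #3 moved it most, since without that library it was -0.077 (adjusted p = 0.751 from edgeR), and without sgCtrl #1 it was -0.27 (adjusted p = 0.0974).

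**Figure D3:**
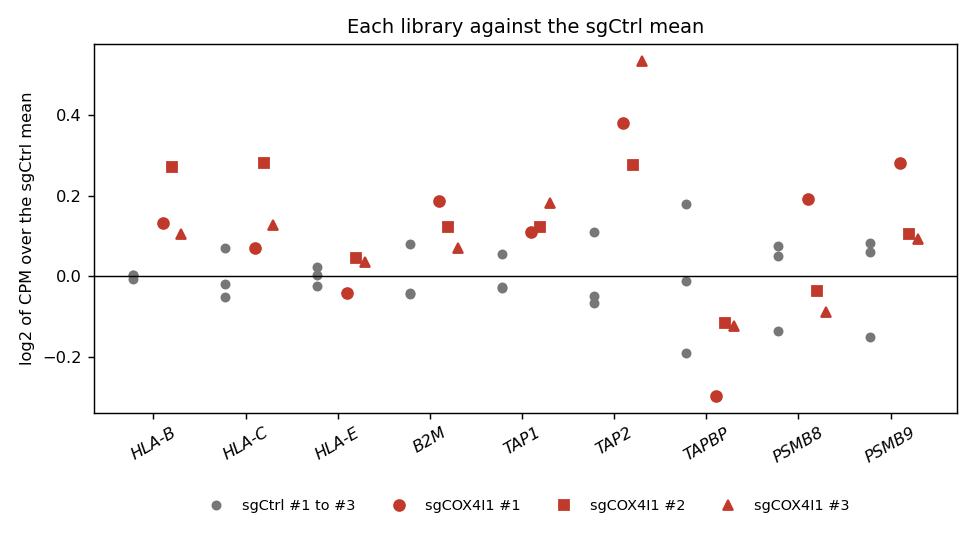
Log2 of the CPM in each library over the sgCtrl mean of the same gene (vertical axis) for the 9 members, with gray points for the 3 sgCtrl libraries and red markers for each sgCOX4I1 guide. sgCOX4I1 #2 is the highest red marker for HLA-B, HLA-C, HLA-E and TAPBP, sgCOX4I1 #1 for B2M, PSMB8 and PSMB9, and sgCOX4I1 #3 for TAP1 and TAP2.

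The immunoproteasome subunits PSMB8 and PSMB9 replace the catalytic subunits PSMB5 and PSMB6 of the standard proteasome and shift its cuts toward peptides that fit class I molecules. PSMB8 was counted at 121, 123 and 106 CPM in sgCtrl and at 133, 114 and 109.6 CPM in sgCOX4I1. The groups overlapped, and the log2 fold change of 0.027 had a 95% interval from -0.17 to 0.22 (adjusted p = 0.914 from edgeR). Its sign turned without sgCtrl #3 (-0.035) and without sgCOX4I1 #1 (-0.061). PSMB9 was counted at 26.0, 26.4 and 22.5 CPM in sgCtrl and at 30.4, 26.9 and 26.7 CPM in sgCOX4I1. Its groups were separated by a narrow gap, and the log2 fold change was 0.16 (SE 0.10, 95% interval -0.057 to 0.38, adjusted p = 0.446 from edgeR). It was 0.093 without sgCtrl #3 and 0.10 without sgCOX4I1 #1.

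The ratio of each immunoproteasome subunit to the one it replaces was compared within libraries, where the scaling between libraries cancels. PSMB8 counts relative to PSMB5 counts were 1.97, 2.01 and 2.05 in sgCtrl and 1.86, 1.64 and 1.87 in sgCOX4I1, lower in every sgCOX4I1 library. The log2 difference was -0.17 (exact two-sided permutation p = 0.1, which is the lowest this design can give). PSMB9 relative to PSMB6 differed by 0.13 on the log2 scale (exact permutation p = 0.2), with ratios of 0.373, 0.402 and 0.343 in sgCtrl and 0.409, 0.378 and 0.434 in sgCOX4I1. PSMB10, the remaining catalytic immunoproteasome subunit, relative to PSMB7 differed by 0.089 (exact permutation p = 0.3). Adjusted over these 3 comparisons each p was 0.3, and this test on 3 libraries against 3 cannot pass the threshold, so it says nothing for or against a shift between the proteasome types. Single libraries moved these differences. PSMB8 relative to PSMB5 was -0.11 without sgCOX4I1 #2, and PSMB9 relative to PSMB6 was 0.070 without sgCtrl #3 and 0.080 without sgCOX4I1 #3. PSMB10 relative to PSMB7 was 0.036 without sgCtrl #3, 0.053 without sgCOX4I1 #2, 0.15 without sgCOX4I1 #1 and 0.17 without sgCtrl #1.

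Levels between genes were compared per kilobase of the canonical transcript, in sgCtrl. B2M was highest, at 749 CPM per kilobase, followed by HLA-B at 483, HLA-C at 276 and HLA-E at 133 CPM per kilobase. PSMB8 followed at 104, TAPBP at 53.8, PSMB9 at 24.6 and TAP1 at 17.8 CPM per kilobase. TAP2 was lowest at 1.88 CPM per kilobase, so the subunits of the pump differed by a factor of 9.44 in this measure. The ranges of neighbors in this order over all 6 libraries did not overlap. The order rests on 1 transcript length per gene and on the counting limits given above for HLA-B, HLA-C and TAP2.

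No other gene of the class I pathway list passed the test. In 3 of these 15 genes every sgCOX4I1 library lay above every sgCtrl library, against 11.2% of all tested genes. The list covers further class I chains, peptide trimming, chaperones and proteasome activators. In either direction 0 passed the test in edgeR, against 2.08% of all tested genes, and DESeq2 called 1. An unadjusted p under 0.05 in edgeR was seen for 2, against 17.3% of all tested genes. Estimates lay above 0 for 11, against 49.4% of all tested genes, and the median log2 fold change was 0.091. ERAP1, the aminopeptidase that trims peptides in the endoplasmic reticulum, was counted at 45.8, 40.5 and 37.9 CPM in sgCtrl and at 55.2, 48.6 and 52.1 CPM in sgCOX4I1, without overlap. Its log2 fold change was 0.33 (SE 0.091, adjusted p = 0.0795 from edgeR), and it passed the threshold without sgCtrl #1 (adjusted p = 0.0204), without the filter on low counts and in DESeq2. HLA-F, a nonclassical chain of low level, was at 1.09, 2.23 and 1.67 CPM in sgCtrl and at 2.94, 2.50 and 2.65 CPM in sgCOX4I1, with a log2 fold change of 0.70 (SE 0.28, adjusted p = 0.215 from edgeR). Of the 14 constitutive proteasome subunits 0 passed, and 0 had an unadjusted p under 0.05 in edgeR, against 17.3% of all tested genes. Their estimates lay above 0 for 10, and the median was 0.053. The smallest p-values were those of PSMB5, at 0.19 (adjusted p = 0.318), and PSMA5, at 0.17 (adjusted p = 0.439), both from edgeR. Without sgCtrl #3 these were 0.12 and 0.078, and PSMA5 was 0.098 without sgCOX4I1 #1 and 0.30 without sgCtrl #1.

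**Figure D4:**
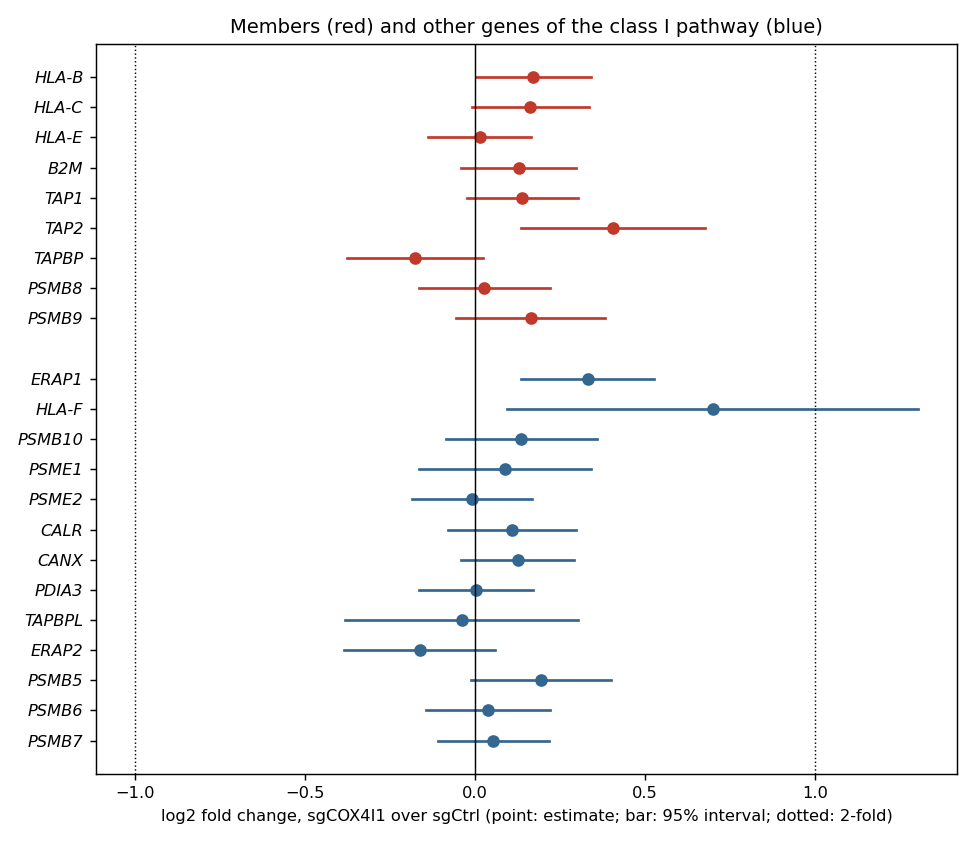
Log2 fold changes of sgCOX4I1 over sgCtrl (horizontal axis) with 95% intervals from edgeR for the 9 members (red), for 10 of the 15 other class I pathway genes and for PSMB5, PSMB6 and PSMB7 (blue), with dotted lines at 2-fold. No interval of a member reaches a 2-fold change, and the intervals of HLA-B and TAP2 lie above 0.

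Of 32 regulators of class I expression, 1 passed the test, against 2.08% of all tested genes, and it was lower. SOCS1, the feedback inhibitor of JAK kinases that limits interferon signaling, was counted at 16.9, 15.1 and 17.5 CPM in sgCtrl and at 6.10, 8.95 and 4.89 CPM in sgCOX4I1. Every sgCOX4I1 library lay far below every sgCtrl library, and the log2 fold change was -1.34 (SE 0.18, adjusted p = 0.00296 from edgeR). SOCS1 stayed past the threshold under every alternative tried, with adjusted p from 1.96e-09 to 0.044. IFNGR1, the ligand-binding chain of the interferon-gamma receptor, had a log2 fold change of 0.31 (SE 0.092, adjusted p = 0.0979 from edgeR), and it passed without sgCtrl #3 (adjusted p = 0.0461), without sgCOX4I1 #1 (adjusted p = 0.0489) and without the filter on low counts. The median of the 32 regulators was 0.021, with 17 estimates above 0.

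Interferon target lists were not changed in a single direction. Of 18 tested interferon-gamma targets, 0 passed in edgeR, and 6 had an unadjusted p under 0.05, against 17.3% of all tested genes. Their estimates lay above 0 for 14, and the median log2 fold change was 0.089. The targets closest to the threshold were CIITA, the class II transactivator (0.59, SE 0.17, adjusted p = 0.0979 from edgeR), and UBE2L6, the ISG15-conjugating enzyme (0.40, SE 0.16, adjusted p = 0.200 from edgeR). Of 29 tested type I interferon targets, 1 passed higher and 2 passed lower, against 2.08% of all tested genes in either direction. Their estimates lay below 0 for 20, and the median was -0.16. IRF7, the interferon regulatory factor that amplifies the type I response, fell (log2 fold change -0.55, SE 0.11, adjusted p = 0.021), as did OAS1, a sensor of double-stranded RNA (-0.91, SE 0.21, adjusted p = 0.0369), whereas TRIM22, an antiviral ubiquitin ligase, rose (0.38, SE 0.086, adjusted p = 0.0356), all from edgeR. Without sgCtrl #2, sgCOX4I1 #2 or sgCOX4I1 #3, 0 genes of this list passed, and without sgCOX4I1 #1 the adjusted p of OAS1 was 0.0851. CIITA and some other genes stand in more than 1 list.

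The MHC class II genes, which present peptides from endocytosed proteins to CD4+ T cells, gave larger estimates than the class I genes. Of 10 tested, 2 passed higher and 0 lower, against 2.08% of all tested genes in either direction. Their estimates lay above 0 for 9, and the median log2 fold change was 0.61. HLA-DRA, the invariant alpha chain of HLA-DR, was counted at 3.76, 3.10 and 3.44 CPM in sgCtrl and at 7.97, 7.21 and 9.18 CPM in sgCOX4I1 (log2 fold change 1.25, SE 0.17, adjusted p = 0.00296 from edgeR). HLA-DMA, which helps to load class II molecules, was counted at 5.50, 5.32 and 6.29 CPM in sgCtrl and at 8.06, 9.53 and 10.8 CPM in sgCOX4I1 (0.73, SE 0.16, adjusted p = 0.0347 from edgeR). Both are low next to HLA-B and B2M, and both were above the sgCtrl range in every sgCOX4I1 library. Without sgCtrl #2, 0 class II genes passed (HLA-DRA at an adjusted p of 0.0523), and without sgCOX4I1 #2 or sgCOX4I1 #3 only HLA-DRA did. The difference between the class I and class II lists was not tested.

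**Figure D5:**
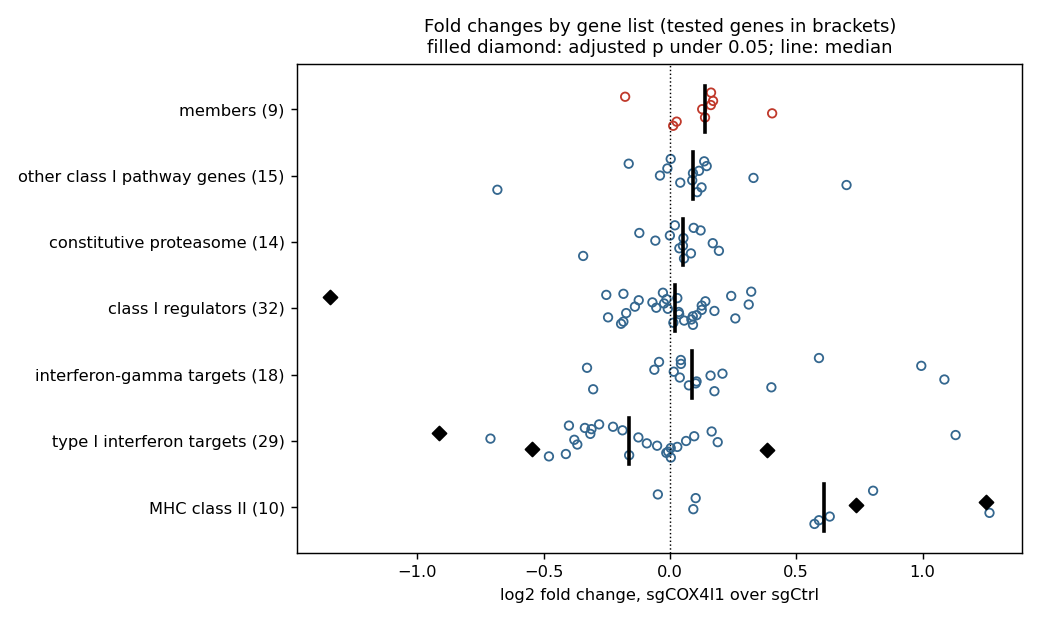
Log2 fold changes of sgCOX4I1 over sgCtrl (horizontal axis) for the members and 6 related gene lists, with a point per tested gene, a filled black diamond where the adjusted p was under 0.05, and a line at each median. The members lie between -0.18 and 0.40 with no diamond, and the MHC class II median lies at 0.61.

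Summed, the members took 0.261%, 0.257% and 0.258% of all counts in sgCtrl and 0.278%, 0.290% and 0.276% in sgCOX4I1, and every sgCOX4I1 value was higher. Most of this sum was HLA-B, HLA-C, HLA-E and B2M, with means of 0.220% in sgCtrl and 0.243% in sgCOX4I1. It therefore says little about the transport, loading and immunoproteasome genes. The genes whose log2 CPM over the 6 libraries was most like the mean standardized profile of the members, among 8987 genes ranked by Pearson's r, were SERINC1 (r = 0.993), TXNRD1 (r = 0.992), SLC16A1 (r = 0.991), NDUFAF1 (r = 0.990) and AKIRIN1 (r = 0.989). With 6 libraries in 2 groups, these values share the difference between the groups and are a description only. The members themselves did not follow 1 profile, since TAPBP ran against PSMB9 (r = -0.914) and B2M (r = -0.890), and HLA-E ran against PSMB8 (r = -0.866), whereas PSMB8 and PSMB9 ran together (r = 0.808).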

How the data were processed

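RNA-seq was analysed for 3 sgCtrl and 3 sgCOX4I1 cultures of Molm13-Cas9+ cells. The authors deposited whole-number read counts for 19845 gene symbols, not normalized. The methods describe Trimmomatic, Bowtie2 and RSEM, whereas the submitters' processing notes list bcl2fastq 2.20.0.422, STAR 2.6.0a, edgeR and GRCh38, and the names of the columns show STAR alignments, duplicate marking and HTSeq counting. Samples were assigned to columns by their letter (C for sgCtrl, K for sgCOX4I1) and guide number, and 0 columns were left unused.

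Counts were tested with edgeR 4.0.16 in R 4.3.3 (TMM normalization, filter on low counts, quasi-likelihood F test, no covariates) in a fit of the 6 libraries together. The p-values of the 11861 genes kept were adjusted by the Benjamini-Hochberg method, and a gene counts as called where its adjusted p was under 0.05. CPM values use TMM-scaled library sizes, with TMM factors from 0.987 to 1.01, and log2 CPM used for profiles has a prior count of 2. Total counts of 17241014 to 30861943 allow a gene with 0 counts a level of up to 0.0972 to 0.174 CPM (3 counts, counting error only). Libraries of a group differed by more than sampling noise (chi-square per degree of freedom 11.0 to 27.6). The code was tested on simulated data.

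The members, gene lists, motifs and rules were chosen with earlier results of these data known. Named genes outside the members are COX4I1, in each pathway list the called genes (at most 5) or, where fewer than 2 were called, the 2 genes with the smallest p, and the 5 genes most like the members' mean profile among genes of at least 10 CPM. Alternatives were DESeq2 1.42.0, limma-voom (limma 3.58.1), library size without TMM, no filter, at least 10 counts in every library, the guide number as a block, each library left out in turn, and a further 2-fold threshold. Positions and exon overlaps came from GENCODE 44 on GRCh38, and promoters from RefSeq on GRCh38.p14. The summed level of the B cell marker list is not reported here.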

Additional observations from a re-analysis of the deposited data

How the results depend on the processing

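Of 108 values for the members under alternatives, 104 kept their direction and their side of the threshold. TAP2 passed the threshold with the replicate block (log2 fold change 0.40), the only member called there or under any alternative (1 of 9, and 0 to 0 with a library left out). HLA-E turned to -0.0031 without sgCOX4I1 #2 (range over libraries left out -0.0031 to 0.042), and PSMB8 turned to -0.035 without sgCtrl #3 and -0.061 without sgCOX4I1 #1 (range -0.061 to 0.082). The same guide number stands for different guides in the 2 groups, and the labels give no pairing. Deviations from the group mean correlated at 0.38, -0.024 and 0.29 for the same numbers. For different numbers they correlated at -0.38 to 0.13. Whether libraries of the same number share an effect was not tested, so the block is a description. The number of all genes called was 247, against 456 in DESeq2, 537 without the filter (of 15168 tested), 1408 with the replicate block, 24 with a 2-fold threshold, and 24 (without sgCtrl #2) to 561 (without sgCtrl #1) with a library left out. The replicate block called 1 other class I pathway gene, 1 constitutive proteasome gene, 4 regulators, 1 interferon-gamma target, 5 type I interferon targets and 6 class II genes. Without the filter these were 1 other class I pathway gene, 2 regulators, 1 interferon-gamma target and 4 class II genes, and DESeq2 called 1 other class I pathway gene. With a 2-fold threshold 0 type I interferon targets and 1 class II gene remained called. With a library left out the calls ranged from 0 to 1 for other class I pathway genes, 0 to 0 for the constitutive proteasome, 1 to 2 for regulators, 0 to 0 for interferon-gamma targets, 0 to 3 for type I interferon targets and 0 to 3 for class II genes. The causes were not tested.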
